A study of Mus musculus with 8 samples.

Results

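Neutrophils take up antibody-coated particles through Fc receptors and bind other particles through scavenger receptors. The expression of 7 genes of these systems was examined in marrow neutrophils of wild-type and ATF3-deficient mice (ATF3 is a transcription factor that cells induce under stress). The genes were Fcgr3, Fcgr4 and Fcgr2b, which encode receptors for IgG, Fcer1g, which encodes the signalling chain shared by activating Fc receptors, the kinase gene Syk, and the scavenger receptor genes Msr1 and Cd36. They were given by name, and their probes were taken as all non-control probes annotated to a RefSeq transcript of the gene. All 7 genes had a probe, and the 8 probes found (2 for Msr1) were among 55681 on the array. Of these 8, 7 passed the filter, a signal above background on 4 or more arrays, and entered the test, so that each gene was represented by 1 probe among 21251 genes tested. Of the 21251, 13087 had a gene symbol, and the others kept the array's own target name. All 21251 are called genes below.

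The 8 samples were Ly6G+ cells sorted with magnetic beads from the marrow of tibias and femurs of C57BL/6 mice, 4 labelled WT and 4 labelled ATF3 KO. Ly6G is a surface protein of neutrophils, and no drug treatment or animal age is given in the protocol fields. The description field of 7 samples mentions 1 week in methylcellulose with 4-OHT (4-hydroxytamoxifen, a drug used to switch on inducible Cre), whereas the design text has RNA taken straight after sorting, and this conflict was not resolved. The labels do not say how the Atf3 allele was made, whether animals were pooled, or that the samples came from separate animals, so p-values measure only the spread between these samples. The series title places the comparison in a study of neutrophil migration.

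Each sample's RNA, labelled with Cy3, was measured on its own single-colour array (Agilent). Signals below are given as log2 of the processed signal minus the 75th percentile of its array, so that a value of 0 is the 75th percentile. That percentile ran from 113 to 216 intensity units, and from 46.0% to 55.3% of probes were above background. ATF3 KO replicate 4 had the lowest of both. Of the neutrophil markers, 11 of 12 had a named probe and all 11 were above background on all 8 arrays (Ly6g itself had no named probe). Of 14 macrophage markers, 12 B lineage markers and 12 megakaryocyte and platelet markers, 14, 11 and 12 were also above background on all 8 arrays. So were 7 of 8 monocyte, 7 of 8 erythroid, 5 of 5 eosinophil and 13 of 13 stroma, endothelium and adipocyte markers. The count was 6 of 10 for basophils and mast cells, 7 of 10 for dendritic cells and 6 of 9 for T and NK cells. The probe of Atf3, the targeted gene, went against the labels: it was higher in all 4 samples labelled ATF3 KO than in any WT sample, at 1.24 ± 0.27 and 0.73 ± 0.07 (SD, n = 4), a log2 difference of 0.51 (SE 0.14; limma adjusted p = 0.121). Whether it lies in the deleted part is not known here, so it did not verify the genotype labels, and ATF3 KO stands below for the samples so labelled. WT and ATF3 KO arrays lay in different rows of 1 slide, so the row cannot be told apart from the genotype.

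Fc receptors bind the constant part of antibodies. Activating receptors such as those encoded by Fcgr3 and Fcgr4 pair with the FcR gamma chain encoded by Fcer1g, whose tyrosines are phosphorylated by Src-family kinases and then bind Syk, which starts the signal for phagocytosis and the oxidative burst. The receptor encoded by Fcgr2b carries an inhibitory motif that recruits phosphatases and restrains the same signal. Scavenger receptors take up modified lipoproteins, apoptotic cells and microbes: Msr1 encodes scavenger receptor A of macrophages, and Cd36 a scavenger receptor and fatty acid transporter of macrophages, platelets, endothelium and adipocytes.

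Fcgr2b, Fcgr4 and Fcgr3 are consecutive protein-coding genes on chromosome 1, with 7 others between Fcgr3 and Fcer1g, and Atf3 is on the same chromosome. The other members lie on chromosomes 13 (Syk), 8 (Msr1) and 5 (Cd36). RefSeq promoter windows of build GRCm38.p6 were found for 6 of the 7 genes, and the 250 bases before the annotated start were searched on both strands for the CRE letters TGACGTCA and the AP-1 letters TGANTCA, to which ATF3 dimers can bind, and for GAGGAAGT, letters bound by the myeloid factor PU.1. Fcgr3, Fcgr4, Fcgr2b and Fcer1g, on chromosome 1, and Syk, on chromosome 13, deviated in the same direction on some arrays (described further on). Shown are the windows of Fcgr4, Fcgr3 and Fcer1g, which encode activating Fc receptors and their signalling chain, with matches in capitals.
Fcgr4, chr1:171018676-171018925 (+ strand): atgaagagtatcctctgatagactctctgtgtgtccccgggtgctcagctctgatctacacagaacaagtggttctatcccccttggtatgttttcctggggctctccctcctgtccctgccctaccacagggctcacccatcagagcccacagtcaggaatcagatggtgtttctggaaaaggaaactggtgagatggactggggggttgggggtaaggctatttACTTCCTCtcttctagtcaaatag
Fcgr3, chr1:171059404-171059653 (- strand): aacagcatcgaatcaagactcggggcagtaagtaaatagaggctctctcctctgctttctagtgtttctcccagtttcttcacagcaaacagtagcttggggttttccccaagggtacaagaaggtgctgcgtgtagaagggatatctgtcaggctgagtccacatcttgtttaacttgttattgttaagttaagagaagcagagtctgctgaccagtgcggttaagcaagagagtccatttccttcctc
Fcer1g, chr1:171234350-171234599 (- strand): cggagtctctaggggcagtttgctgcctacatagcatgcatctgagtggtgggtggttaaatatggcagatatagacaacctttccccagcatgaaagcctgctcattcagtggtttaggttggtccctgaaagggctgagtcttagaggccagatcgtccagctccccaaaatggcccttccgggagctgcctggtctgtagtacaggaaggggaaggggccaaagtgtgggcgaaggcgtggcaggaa
The reverse complement of the PU.1 letters, ACTTCCTC, was found in the Fcgr4 window, beginning 24 bases before the start, and in 1 of the 8 member windows, against 2.44% of 32851 promoter windows of the same length. Neither the CRE letters (1.55% of windows) nor the AP-1 letters (6.75%) were found in any of the 8. A match of letters is a description and no evidence of binding, and its lack says only that these letters are not in the window.

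None of the 7 genes differed between ATF3 KO and WT by limma's test (0 of 7 at an adjusted p under 0.05, against 0.447% of all genes tested). At an unadjusted p under 0.05 the count was also 0 of 7, against 23.9% of all genes. The groups overlapped for all 7, and they did not overlap for 15.1% of all genes. With only 7 genes, counts of 0 do not set them apart from these shares. Two-sided exact permutation p-values ran from 0.143 (Msr1) to 0.829 (Syk), where 0.0286 is the smallest that 4 against 4 allows. The measured difference was below 0 for 6 of the 7, as it was for 65.5% of all genes, and the members' median of −0.17 on the log2 scale compares with −0.11 for all genes. That gap was not stable: the members' median minus that of all genes was 0.00065 with quantile normalization and 0.035 without ATF3 KO replicate 4. Without that array 4 of 7 were below 0. With the percentile over detected probes 4 of 7 were also below 0. The gap there was −0.063, as in the main fit, since that scaling shifts all genes alike. The intervals are given with each gene, since a missed threshold does not show equal levels.

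**Figure D1:**
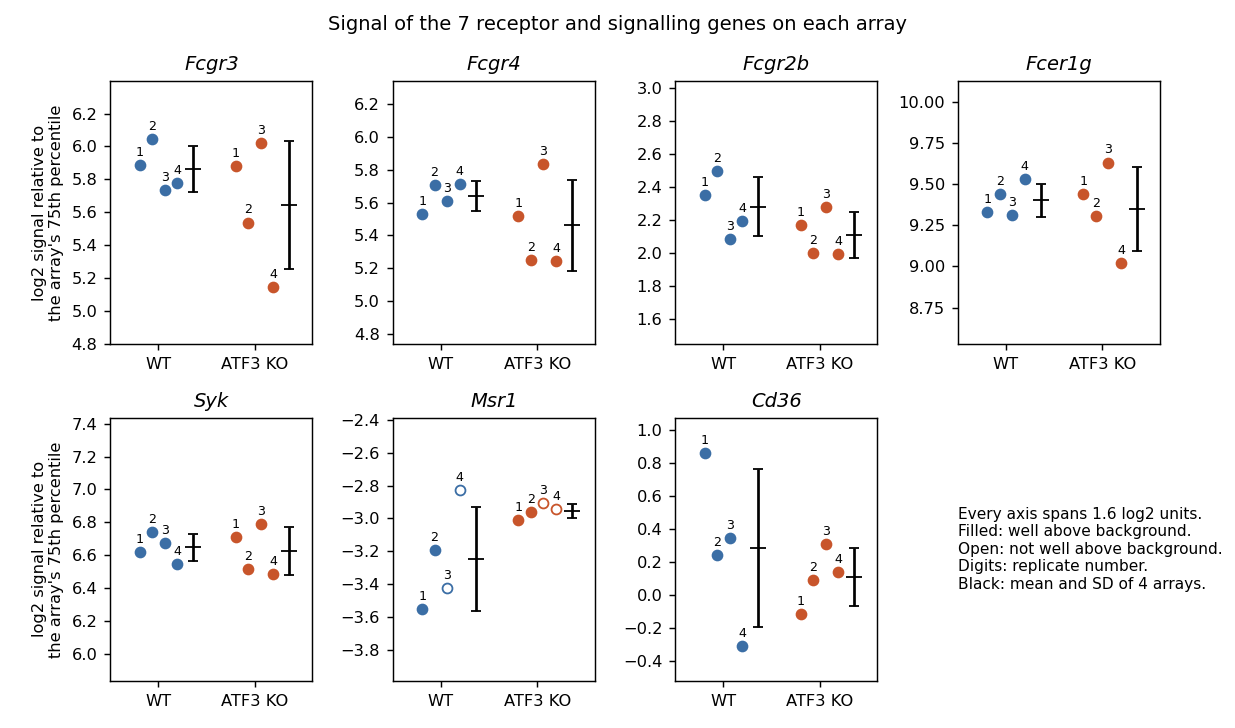
Signal of each of the 7 genes on each array, as log2 relative to the array's 75th percentile, with WT in blue and ATF3 KO in orange and the mean and SD of 4 arrays in black. The groups overlap in every panel, and ATF3 KO replicate 4 is the lowest array for Fcgr3, Fcgr4, Fcgr2b, Fcer1g and Syk.

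Among the activating receptors, the probe for Fcgr3 (A_52_P408757), the low-affinity IgG receptor III, read 5.89, 6.05, 5.74 and 5.78 in WT replicates 1 to 4. In ATF3 KO replicates 1 to 4 it read 5.88, 5.54, 6.02 and 5.15. Replicates 1 and 3 of ATF3 KO lay within the WT range and replicates 2 and 4 below it. The WT mean was 5.86 ± 0.14 and the ATF3 KO mean 5.65 ± 0.39 (SD, n = 4), a log2 difference of −0.22 (SE 0.18; 95% interval −0.63 to 0.20; limma adjusted p = 0.448), or a fold of 0.861 (0.647 to 1.15). Leaving out ATF3 KO replicate 3 gave a difference of −0.34 and leaving out replicate 4 gave −0.050, and ATF3 KO replicate 4 also had the lowest 75th percentile of all arrays, 113 intensity units.

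Fcgr4 encodes the receptor IV for IgG2a and IgG2b, expressed on neutrophils and monocytes. Its probe (A_51_P181517) read 5.53, 5.71, 5.61 and 5.71 in the WT replicates and 5.52, 5.25, 5.83 and 5.25 in the ATF3 KO replicates, with replicate 3 of ATF3 KO above all WT arrays and the other 3 below them. The log2 difference was −0.18 (SE 0.14; 95% interval −0.50 to 0.14; limma adjusted p = 0.418). It was −0.11 without ATF3 KO replicate 2 or without replicate 4, and −0.30 without ATF3 KO replicate 3 (limma adjusted p = 0.113).

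The inhibitory receptor gene Fcgr2b had 10 spots of its probe (A_51_P130095) on each array, the only member with more than 1. Their average read 2.35, 2.49, 2.09 and 2.19 in the WT replicates. It read 2.17, 1.998, 2.28 and 1.99 in the ATF3 KO replicates, so replicates 1 and 3 lay within the WT range and replicates 2 and 4 below it. The log2 difference was −0.17 (SE 0.12; 95% interval −0.44 to 0.10; limma adjusted p = 0.371), a fold of 0.888. Without WT replicate 2 it was −0.099. The spots of an array had an SD from 0.049 to 0.099, less than the SD of 0.18 between the WT arrays and 0.14 between the ATF3 KO arrays. Most of the spread of this probe therefore lay between arrays and not between spots. B cells also express Fcgr2b, and the summed signal of the 12 B lineage markers (each relative to its array's 75th percentile, linear scale) was 57.2 to 81.2 in WT and 112 to 126 in ATF3 KO, with a higher mean in ATF3 KO for all 12. Bright genes weigh most in a linear sum. Jchain had the largest difference of the 12, with a log2 mean of 3.69 in WT and 5.50 in ATF3 KO (difference 1.81). The other B lineage markers differed by 0.28 (Pax5) to 0.82 (Igll1). The mean of Fcgr2b was lower in ATF3 KO, and the part of B lineage RNA in its signal was not tested. For the 14 macrophage markers the sum was 356 to 454 in WT and 266 to 366 in ATF3 KO. The mean was higher in ATF3 KO for 0 of these 14, and the part of macrophage RNA was not tested either. In such bulk samples fewer cells of a type and less RNA per cell cannot be told apart.

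**Figure D2:**
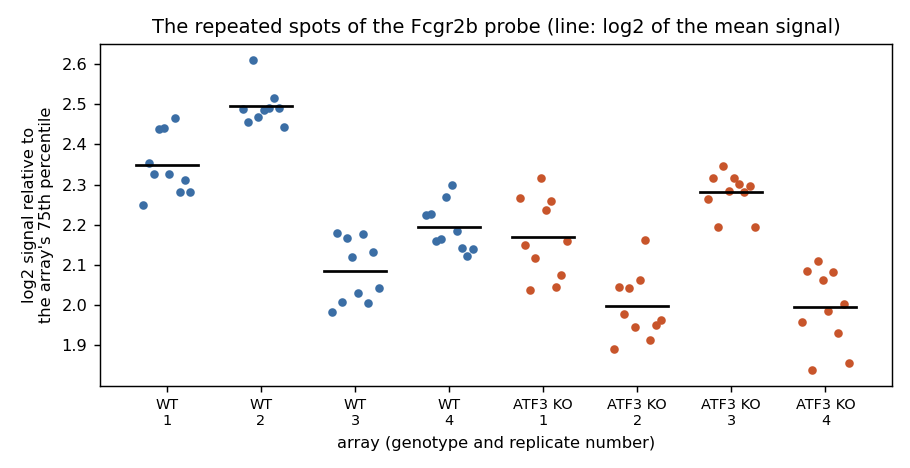
Log2 signal of the repeated Fcgr2b spots on each array (9 on WT replicate 2, where 1 was flagged as an outlier, and 10 on the others), with a line at the log2 of their mean signal. The spots of an array lie close together beside the distance between arrays, with WT replicate 2 highest.

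Fcgr3, Fcgr4 and Fcgr2b are close paralogues, and cross-hybridisation between their probes was not tested. A probe's brightness depends on its sequence, so the levels of different genes are not compared here.

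The signalling chain gene Fcer1g (A_51_P405476) read 9.33, 9.44, 9.31 and 9.53 in the WT replicates and 9.44, 9.31, 9.63 and 9.02 in the ATF3 KO replicates. Its ATF3 KO arrays lay on both sides of the WT range. The means were 9.40 ± 0.10 and 9.35 ± 0.26 (SD, n = 4), and the log2 difference was −0.052 (SE 0.14; 95% interval −0.36 to 0.25; limma adjusted p = 0.812). Its sign was not stable: it was 0.057 without ATF3 KO replicate 4 and 0.10 when the percentile was taken over probes detected on all arrays. The latter scaling shifts all genes alike, and their median was 0.044 with it.

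Syk, the kinase that binds the phosphorylated chain, had the smallest difference of the 7. Its probe (A_55_P1962946) read 6.62, 6.74, 6.68 and 6.55 in WT and 6.71, 6.52, 6.79 and 6.48 in ATF3 KO, with means of 6.65 ± 0.08 and 6.63 ± 0.15 (SD, n = 4). The groups lay over each other. The log2 difference was −0.021 (SE 0.10; 95% interval −0.26 to 0.21; limma adjusted p = 0.906), so the interval of the fold ran from 0.837 to 1.16. The sign turned with quantile normalization (0.082), with the percentile over detected probes (0.13) and with the deposited log2 table (0.11). In these settings the median of all genes was −0.046, 0.044 and −0.0275.

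The scavenger receptor gene Msr1 was near background. Its better probe (A_52_P127130) was above background on 2 of 4 WT and 2 of 4 ATF3 KO arrays and read −3.55, −3.19, −3.42 and −2.83 in WT and −3.01, −2.96, −2.90 and −2.94 in ATF3 KO. The ATF3 KO arrays were close together, and WT replicate 4 lay above them. The log2 difference was 0.29 (SE 0.15; 95% interval −0.046 to 0.63; limma adjusted p = 0.253), and it was −0.010 with the deposited log2 table. The second probe (A_52_P607128) was above background on none of the 8 arrays and read from −5.56 to −3.71, with a measured difference of −0.70 in the other direction. The 2 probes thus differed in sign, both near or below background.

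Cd36 (A_51_P375146) was above background on all arrays and had the largest SD of the 7 among the WT samples. It read 0.86, 0.24, 0.34 and −0.31 in the WT replicates and −0.12, 0.088, 0.31 and 0.14 in the ATF3 KO replicates, so all 4 ATF3 KO arrays lay within the WT range. The means were 0.28 ± 0.48 and 0.11 ± 0.18 (SD, n = 4), with a log2 difference of −0.18 (SE 0.22; 95% interval −0.67 to 0.31; limma adjusted p = 0.597). WT replicate 1 decided its sign, since the difference was 0.013 without it and −0.38 without WT replicate 4. Platelets, macrophages and endothelium express this gene, and the summed signal was 67.8 to 86.0 in WT and 59.2 to 115 in ATF3 KO for the 12 megakaryocyte and platelet markers, 356 to 454 and 266 to 366 for the 14 macrophage markers and 92.6 to 122 and 56.3 to 86.9 for the 13 markers of stroma, endothelium and adipocytes. The mean was higher in ATF3 KO for 11 of the 12 platelet markers, 0 of the 14 macrophage markers and 0 of the 13 others. The platelet marker with a lower mean was Itgb3 (log2 mean 5.26 in WT and 4.79 in ATF3 KO). It had the brightest signal of the 12 and so weighed most in their sum. The part of platelet, macrophage, stroma, endothelium and adipocyte RNA in the Cd36 signal was not tested.

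**Figure D3:**
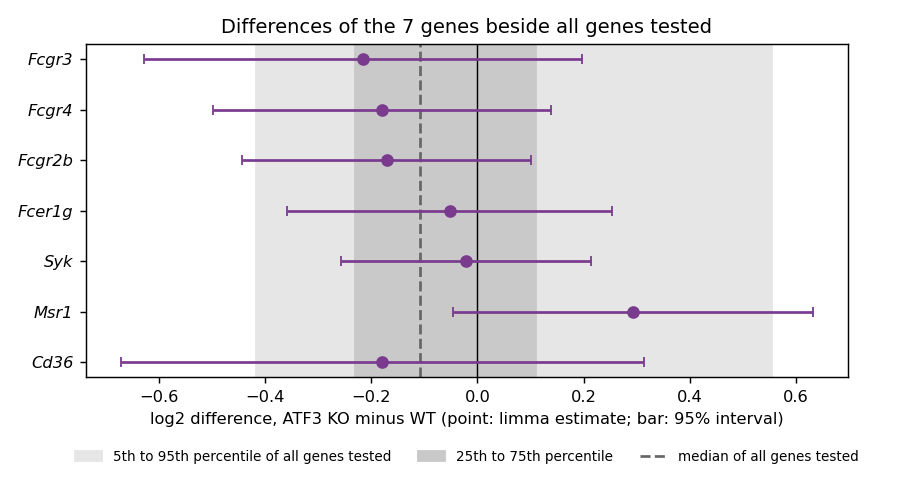
Log2 difference, ATF3 KO minus WT, of the 7 genes with limma's 95% intervals, over the 5th to 95th and 25th to 75th percentiles and the median (−0.11) of all 21251 genes tested. Every interval includes 0, from the narrowest for Syk to the widest for Cd36.

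The Fc receptor chains and Syk deviated in the same direction in ATF3 KO replicates 2, 3 and 4 and in WT replicate 2. Their signs were mixed on the other arrays, as in WT replicate 4, with 0.16 for Fcgr4 and −0.087 for Syk. ATF3 KO replicate 4 was the lowest of the 8 arrays for all 5 genes, from −0.61 for Fcgr3 to −0.15 for Syk relative to each gene's mean over the 8 arrays. ATF3 KO replicate 2 was also below 0 for all 5. It was close to replicate 4 for Fcgr4 (−0.300 against −0.305) and Fcgr2b (−0.198 against −0.201). The highest array was ATF3 KO replicate 3 for Fcgr4 (0.28), Fcer1g (0.26) and Syk (0.15) and WT replicate 2 for Fcgr3 (0.29) and Fcgr2b (0.30). The median deviation of all genes was −0.079 in ATF3 KO replicate 4 and 0.018 in ATF3 KO replicate 3. It was lowest in ATF3 KO replicate 2, at −0.10. The SD of these 5 genes within the groups stood from percentile 16.2 (Syk) to percentile 74.8 (Fcgr3) of all genes tested. Msr1 and Cd36 had their lowest and highest values elsewhere, in WT replicates 1 and 4, and in opposite order.

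**Figure D4:**
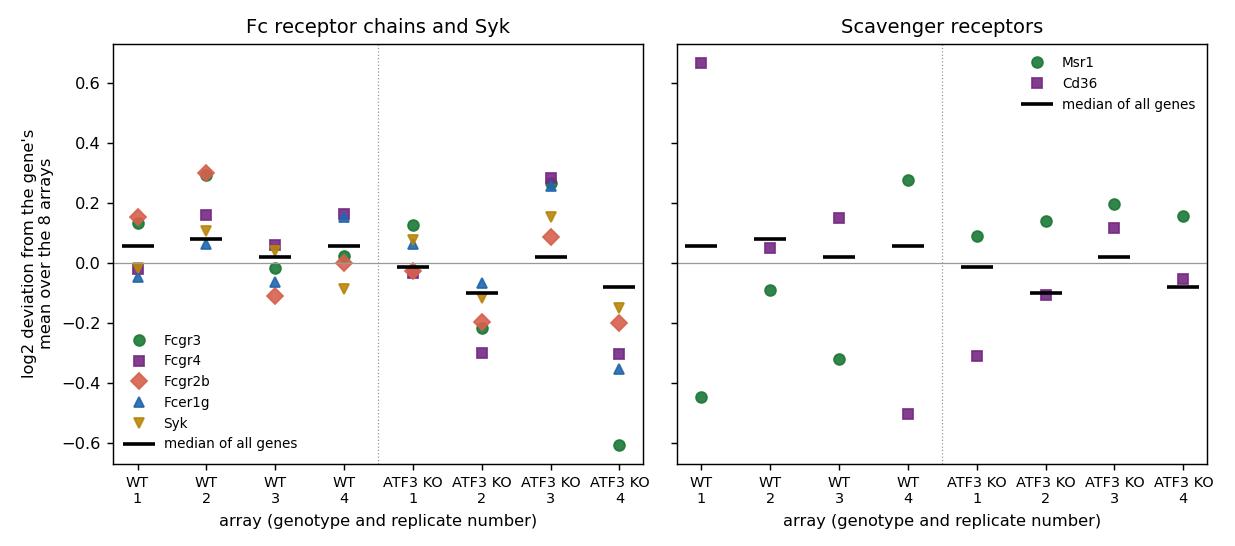
Deviation of each gene from its own mean over the 8 arrays on the log2 scale, by array, for the Fc receptor chains and Syk (left) and the scavenger receptors (right), with the median of all genes as a black bar. The 5 genes on the left are all below 0 in ATF3 KO replicates 2 and 4 and all above 0 in ATF3 KO replicate 3. Msr1 and Cd36 are farthest apart in WT replicate 1.

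The genes with the most similar pattern over the 8 arrays were searched among 13078 others with a symbol, by Pearson's r, as a description of arrays that share a platform, a slide and a scaling. With so many genes and so few arrays high values arise easily. They were Ndel1 (0.99) and Mettl9 (0.99) for Fcgr3, Akt2 (0.99) and Arpc5 (0.99) for Fcgr4, Adipor1 (0.98) and Zbtb2 (0.98) for Fcgr2b, and Arl8a (0.99) and Rps6ka1 (0.99) for Fcer1g. For Syk they were Slc2a6 (0.96) and Pbxip1 (0.96), for Msr1 Phf20l1 (0.97) and Vmn1r62 (0.93), and one of those for Cd36 was Prxl2a (0.98).

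The pathway around the members was described with 7 lists of other genes, of which 106 of 121 were tested. None passed limma's threshold (0 of 106, against 0.447% of all genes). At an unadjusted p under 0.05, 24 measured lower and 6 measured higher in the knockout (22.6% and 5.66%, against 14.5% and 9.38% of all genes). The groups did not overlap for 20 lower and 3 higher genes (18.9% and 2.83%, against 10.9% and 4.13%).

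All 14 scavenger receptors tested were below 0 in ATF3 KO, as were 65.5% of all genes. Their median was −0.34 against −0.11 for all genes. At an unadjusted p under 0.05, 8 were lower (57.1%, against 14.5% of all genes). Of these 8, Scara3 and Ssc5d were above background on only 2 of 4 ATF3 KO arrays. The median was nearest 0 with normexp background correction (−0.18), the percentile over detected probes (−0.18) and the deposited log2 table (−0.16). It was −0.25 with quantile normalization and −0.27 with the filter on all 8 arrays. That filter left 12 of the list, 6 of them at an unadjusted p under 0.05. With normexp, with the percentile over detected probes and without ATF3 KO replicate 2, 12 of 14 were below 0. This median was the lowest of the 7 lists, but with normexp those of other phagocytic receptors (−0.26) and of phosphatases and inhibitors (−0.19) were lower. Lrp1, a large endocytic receptor, read 1.94 ± 0.13 in the WT and 1.40 ± 0.18 in the knockout samples (SD, n = 4; difference −0.54, SE 0.12; limma adjusted p = 0.0903). Cd5l, a secreted scavenger protein of macrophages, read 6.48 ± 0.12 and 5.96 ± 0.27 (difference −0.51, SE 0.14; limma adjusted p = 0.123). The macrophage markers moved with this list: all 14 had a lower mean in ATF3 KO, with a median difference of −0.37, and Cd163 and Cd5l are in both lists. The part of macrophage RNA in the list's values was not tested.

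Receptors for apoptotic cells and other phagocytic receptors had a median of −0.23. At an unadjusted p under 0.05, 8 of 21 were below 0 and 1 above it (38.1% and 4.76%, against 14.5% and 9.38% of all genes). Timd4, a phosphatidylserine receptor of resident macrophages, read 0.36 ± 0.22 in WT and −0.27 ± 0.25 in ATF3 KO (difference −0.63, SE 0.16; limma adjusted p = 0.107). The integrin gene Itgax read 3.11 ± 0.11 and 2.60 ± 0.23 (difference −0.51, SE 0.13; limma adjusted p = 0.109). The 1 gene on the other side was Itgam, the alpha chain of complement receptor 3, at 0.36 (SE 0.13; limma adjusted p = 0.167), named after its value was seen. The markers Mrc1, Mertk, Timd4, Axl and Siglec1 of the macrophage list are also in this list.

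Other Fc receptors had a median of −0.11, that of all genes, with values on both sides, and it ran from −0.19 to 0.11 over the alternatives. Fcmr, the IgM receptor of B cells, had a difference of 0.49 (SE 0.14; limma adjusted p = 0.123), beside the higher B lineage sum given above. Fcgrt, the neonatal Fc receptor that recycles IgG, had one of −0.39 (SE 0.12; adjusted p = 0.136). The high-affinity receptor gene Fcgr1, named after its value was seen, had −0.16 (SE 0.19).

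Partners of the gamma chain and other ITAM adaptors had a median of 0.023, with Cd79b, part of the B-cell receptor, at 0.34 (SE 0.11) and Clec4n, the lectin Dectin-2 that signals through the gamma chain, at −0.49 (SE 0.17). In this list 3 genes (27.3%, against 9.38% of all genes) were above 0 at an unadjusted p under 0.05. They were Cd79b, Cd79a (0.29, SE 0.11), its partner, and Gp6 (0.75, SE 0.27), the collagen receptor of platelets. Cd79a and Cd79b are also in the B lineage list and Gp6 in the platelet list, of which 12 of 12 and 11 of 12 markers had a higher mean in ATF3 KO, and the part of those cells was not tested. The median was −0.11 with normexp, −0.052 with median scaling and −0.035 with the deposited log2 table. Minus the median of all genes, it was 0.13 both in the main fit and with median scaling. With normexp that value was −0.052, and with the deposited table −0.0075. Tyrobp, the adaptor DAP12 that like the gamma chain recruits Syk, was at 0.023 (SE 0.12). The kinases at the receptor had a median of −0.15 and 0 of 7 at an unadjusted p under 0.05, against 23.9% of all genes. Fgr had −0.24 (SE 0.12) and Zap70, the Syk relative of T cells, 0.33 (SE 0.18), while Lyn was at −0.044. Phosphatases and inhibitors had a median of −0.15. At an unadjusted p under 0.05, 4 of 14 were below 0 and 0 above it (28.6% and 0%, against 14.5% and 9.38% of all genes). Ptpn22 had −0.29 (SE 0.091) and Cblb, above background on 2 of 4 ATF3 KO arrays, −0.55 (SE 0.18), while Inpp5d, the SHIP1 phosphatase that Fcgr2b recruits, had −0.11 (SE 0.10). Adaptors and effectors had a median of −0.14. At an unadjusted p under 0.05, 2 of 28 were lower (7.14%, against 14.5% of all genes), the PI3-kinase subunit genes Pik3cb (−0.22, SE 0.096) and Pik3r1 (−0.39, SE 0.17). Cd79a, Gp6, Tyrobp, Lyn and Inpp5d were named after their values were seen.

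**Figure D5:**
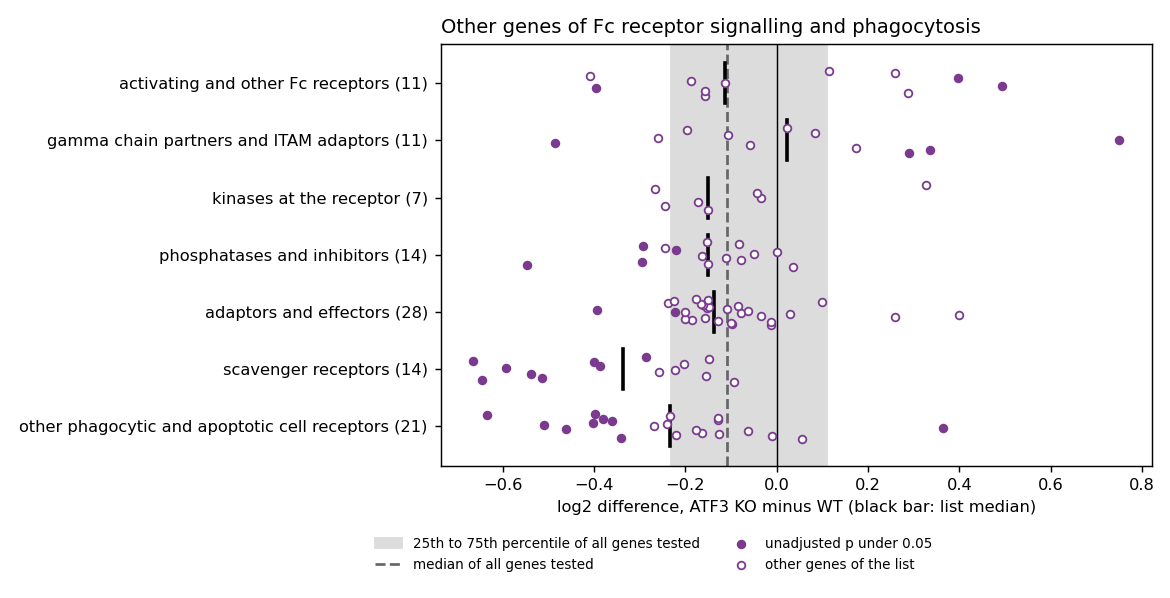
Log2 difference, ATF3 KO minus WT, of 106 other genes in 7 lists (number tested in brackets), with filled points for an unadjusted p under 0.05, a black bar for the list median and grey for the 25th to 75th percentile of all genes. All 14 scavenger receptors lie left of 0, whereas other lists have genes on both sides.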

How the data were processed

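RNA of 8 Ly6G+ marrow samples was measured on single-colour arrays. Per the file headers, the deposited scanner files hold spot intensity after background subtraction and spatial detrending by Agilent Feature Extraction 10.9.1.1 (10.10 per the submitters' processing notes). The deposited table holds log2 values whose scale, centring and direction are unstated. Each column followed the log2 median signal of its own array (across probes, r of at least 0.998). The columns had medians from 6.13 to 6.15, and served as an alternative only.

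Control and outlier spots (98 to 159 per array) were left out, spots of a probe averaged, and log2 taken minus the array's 75th percentile. Probes above background on at least 4 of 8 arrays were kept, and the probe with the highest mean stood for a gene. Symbols came from RefSeq transcripts (GRCm38.p6). limma 3.58.1 in R 4.3.3 (lmFit, eBayes, genotype as the only term) was fitted over all genes with Benjamini-Hochberg adjustment, and was tested on simulated data. Members and lists were chosen with earlier results of these data known. Named pathway genes are the 2 of each list with the smallest p, unless said otherwise, and 2 genes per member were named by the highest r, of which 1 is not reported here. The alternatives were another background correction, scaling, filter, probe rule, variance model, threshold or source, a replicate block, array weights and leaving out each array. Normexp used the median signal. No 2 arrays held identical values. The number of arrays limits the precision.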

Additional observations from a re-analysis of the deposited data

How the results depend on the processing

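Of the 7 genes, 0 passed under any of the 22 alternatives, with limma adjusted p from 0.113 (Fcgr4) upward. Fcgr3, Fcgr4 and Fcgr2b stayed below 0 in all 22, at −0.39 to −0.050, −0.30 to −0.027 and −0.25 to −0.0058. In the main fit all 3 were below the median of all genes (−0.11), but not in every alternative. With quantile normalization that median was −0.046, against −0.043 for Fcgr4 and −0.045 for Fcgr2b. Without ATF3 KO replicate 4 it was −0.085, against −0.050 for Fcgr3. The sign turned for Fcer1g with the percentile over detected probes (0.10). For Syk it turned with that percentile (0.13), with quantile normalization (0.082) and with the deposited log2 table (0.11). For Msr1 it turned with that table (−0.010). The percentile over detected probes shifted all genes alike, with a median of all genes of 0.044 against −0.11 in the main fit. Leaving out each array gave −0.15 to 0.057 for Fcer1g, −0.075 to 0.026 for Syk and −0.38 to 0.013 for Cd36. The cause of the other changes of sign was not tested. Msr1 could not be tested in 5 of the alternatives, since its probe was above background on too few arrays.

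List medians ran over the alternatives from −0.25 to −0.019 for the 7 genes, −0.41 to −0.16 for scavenger receptors and −0.31 to −0.081 for other phagocytic receptors. They ran from −0.11 to 0.18 for gamma chain partners, −0.23 to 0.0010 for kinases, −0.23 to 0.00093 for phosphatases and −0.21 to 0.014 for adaptors. Minus the median of all genes, they ran from −0.16 to 0.035 for the 7 genes and −0.29 to −0.13 for scavenger receptors. On that scale they ran from −0.21 to −0.096 for other phagocytic receptors and −0.052 to 0.17 for gamma chain partners. Kinases ran from −0.068 to 0.028, phosphatases from −0.14 to −0.013 and adaptors from −0.13 to 0.025. Of the pathway genes, 3 passed with normexp (Cd5l, Gas6 and Lrp1, all lower), 1 with trend and robust variances (Lrp1), 1 with the deposited log2 table (Cd79b, higher), 1 at an adjusted p under 0.1 (Lrp1) and 0 to 1 when an array was left out (Timd4, without ATF3 KO replicate 3). Over all genes 95 passed (78 higher, 17 lower). The count was 251 with normexp (156 and 95), 31 with quantile normalization (22 and 9), 217 with median scaling, 44 with the percentile over detected probes, 19 with a filter on at least 1 array (10 and 9), 10 with no filter (4 and 6), 58 with every probe tested, 192 with trend and robust variances (136 and 56), 207 with array weights, 149 with the deposited table, 403 at an adjusted p under 0.1 (264 and 139) and 5 to 226 when an array was left out. Dropping WT replicates 1, 2, 3 and 4 in turn left 5, 32, 5 and 54, and the count was 17, 226 and 28 without ATF3 KO replicates 2, 3 and 4, and 115 without ATF3 KO replicate 1.

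Replicate numbers did not pair the samples: same-numbered arrays correlated at −0.27 to 0.19 across genes in their deviations from the group means. With the replicate block 72 genes passed, and 0 of the 7 (limma adjusted p from 0.297 for Msr1 to 0.916 for Syk).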
